A study of Mus musculus with 29 samples.

Results

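Rgcc, Ankrd6, Reep6, Fzd9, Cited1, Nrtn, Slc38a3, Dusp2, Il15ra and Ppm1j are 10 mouse genes whose RNA rose and stayed high in fibroblasts after Myc was switched on. They were picked by symbol for large rises in total or newly made RNA of these same fibroblasts, so their fibroblast values describe the choice and carry no test. The 10 genes stand among 21675 gene symbols in the fibroblast files and 21819 in the B cell files. The rule of the choice did not use their B cell values, which were tested. Earlier results of these data were known when the genes were chosen, so these tests are not fully independent of the choice.

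Myc is a transcription factor that pairs with Max and binds DNA at the E-box CACGTG and at near variants such as CACGCG. It is known for raising genes of growth and metabolism, and it also lowers many genes. MycER is Myc fused to the hormone-binding domain of the estrogen receptor, which keeps it inactive until 4-hydroxytamoxifen (OHT) is added. The 10 genes belong to unrelated families, among them a Wnt receptor, a growth factor, a cytokine receptor chain, 2 protein phosphatases and a glutamine transporter.

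The fibroblast line was 3T9, made from mouse embryos of mixed strain. All of its libraries carry the genotype c-mycflox/flox and were infected in culture with MycER. Total RNA was read in 4 libraries each at 0 h (ethanol) and at 4, 8 and 16 h of 400 nM OHT. RNA made during a 10 min pulse of 300 µM 4-thiouridine (4sU) was read in 1 library at 0 h and 1 at 4 h of OHT. No library holds OHT-treated cells without MycER, and ethanol libraries are listed at 0 h alone. MycER activity, OHT itself and time therefore cannot be told apart in the fibroblasts. Eμ-myc mice carry a Myc transgene driven by an immunoglobulin enhancer that is active in B cells. Their part of the study comprised C57BL/6 spleen B cells, enriched on B220 beads at 6 to 8 weeks of age, from 4 libraries labelled WT and 4 labelled Tg, and 3 libraries of Tg tumour cells pressed out of lymph nodes with no further purification. Whether the MycER cells were 1 clone or a pool, and whether each library came from its own animal or culture, is not given in the sources used here, so p-values measure the spread between these libraries.

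Levels are in FPKM as deposited, that is, fragments scaled by gene length and by library size. The B cell files run on a higher scale than the fibroblast files, so levels are compared within each set alone. Fibroblast markers (10 genes such as Col1a1 and Vim) summed to 413 to 513 FPKM in the 16 total RNA libraries of the fibroblasts, and B cell markers to 3.71 to 10.1 FPKM. The spleen libraries held 24394 to 42457 FPKM of 8 B cell markers. The third lymph node tumour library stood apart. It held 1705 FPKM of B cell markers, against 18548 and 20097 in the other tumours, and 10803 FPKM of T cell markers, against 1568 and 1760. All 3 tumour libraries held acinar gland transcripts, at 2509, 5089 and 11583 FPKM in the order of their numbers, where no spleen library exceeded 59.0 FPKM. Tumour differences of the 10 genes from WT spleen are therefore given with and without the third library. RNA of Myc itself was at 191 to 273 FPKM in WT spleen, 1017 to 2408 in Tg spleen and 1759 to 2179 in the tumours. In fibroblasts the Myc row read 20.3 to 29.7 FPKM at 0 h and 7.92 to 14.5 FPKM over the 12 OHT libraries, and whether MycER transcripts count in that row is not given in the sources used here.

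The 250 bases before the annotated start were searched for both motifs in RefSeq (GRCm38.p6), where 8 of the 10 genes have an entry. The files themselves were made on mm9, so only symbols link the sequences to the values. CACGTG lies before Fzd9 and Dusp2, 2 of the 8 genes, against 6.86% of all 27025 genes in the table. CACGCG, read on either strand (CGCGTG on the other), lies before Rgcc, Ankrd6, Fzd9 and Dusp2, 4 of the 8, against 8.65% of all genes. The motifs do not overlap in these windows. Ankrd6 has the motif before its first start alone, and its windows at starts 2 and 3 hold neither motif. The 4 windows that hold a motif are shown 5′ to 3′ in the direction of the gene, with the motif in capitals. They are chr14:79301636-79301885 on the minus strand for Rgcc, chr4:32950827-32951076 on the minus strand for the first start of Ankrd6, chr5:135251048-135251297 on the minus strand for Fzd9 and chr2:127335909-127336158 on the plus strand for Dusp2.
Rgcc: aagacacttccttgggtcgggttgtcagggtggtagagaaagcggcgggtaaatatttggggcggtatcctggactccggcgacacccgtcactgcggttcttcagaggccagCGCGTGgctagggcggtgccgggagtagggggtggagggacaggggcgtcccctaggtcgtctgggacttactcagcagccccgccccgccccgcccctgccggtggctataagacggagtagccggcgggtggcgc
Ankrd6: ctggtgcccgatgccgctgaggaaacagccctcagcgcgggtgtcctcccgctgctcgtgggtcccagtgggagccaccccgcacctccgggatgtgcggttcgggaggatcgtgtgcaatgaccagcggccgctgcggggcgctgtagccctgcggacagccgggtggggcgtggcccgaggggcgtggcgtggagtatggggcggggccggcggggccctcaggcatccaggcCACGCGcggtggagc
Fzd9: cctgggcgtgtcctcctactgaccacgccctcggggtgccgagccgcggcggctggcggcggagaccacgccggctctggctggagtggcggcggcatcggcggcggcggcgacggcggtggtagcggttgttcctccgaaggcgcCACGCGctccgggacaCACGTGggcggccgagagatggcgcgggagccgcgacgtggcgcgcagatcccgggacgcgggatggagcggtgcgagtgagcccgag
Dusp2: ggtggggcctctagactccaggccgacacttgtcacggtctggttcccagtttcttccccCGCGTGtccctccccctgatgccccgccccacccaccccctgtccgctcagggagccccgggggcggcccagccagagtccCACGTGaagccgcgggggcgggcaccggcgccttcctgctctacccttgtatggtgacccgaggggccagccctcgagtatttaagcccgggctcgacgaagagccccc
The CACGTG of Fzd9 begins 88 bases before the start and that of Dusp2 109 bases before it. The CACGCG type begins 137, 15, 104 and 190 bases before the start of Rgcc, Ankrd6, Fzd9 and Dusp2. The first windows of the 8 genes held a median of 19 CpG, against 6 over the first windows of all 27025 genes. The 4 windows also hold these letters amid many other CG-rich words, and no binding was measured here.

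In fibroblast total RNA all 10 genes were higher in each of the 12 OHT libraries than in any of the 4 libraries at 0 h, which held for 1.97% of the 12934 genes tested. The median difference of the 10 genes on the log2(FPKM + 0.5) scale was 2.06 at 4 h, 1.80 at 8 h and 1.94 at 16 h, beside medians over all tested genes of -0.04, -0.06 and -0.14. Scaling each library by its median ratio moved the median of all genes at 16 h by 0.19 and gave 2.12 for the 10 genes. Values between treated times overlapped in each of 30 comparisons of a gene between 2 treated times, while 0.649%, 0.387% and 1.48% of all tested genes did not overlap between 4 and 8 h, 4 and 16 h, and 8 and 16 h. With shares this small over all genes, the overlap is not a result about the 10 genes. It also rested in places on the libraries numbered 4. Without them, 3 libraries a time, Rgcc, Cited1 and Slc38a3 were lower at 8 h than at 4 h with no overlap, as were 13.6% of all genes in either direction. Likewise Slc38a3 (lower) and Dusp2 (higher) did not overlap between 4 and 16 h (3.29% of all genes), nor Rgcc and Slc38a3, both higher at 16 h, between 8 and 16 h (8.45%).

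**Figure D1:**
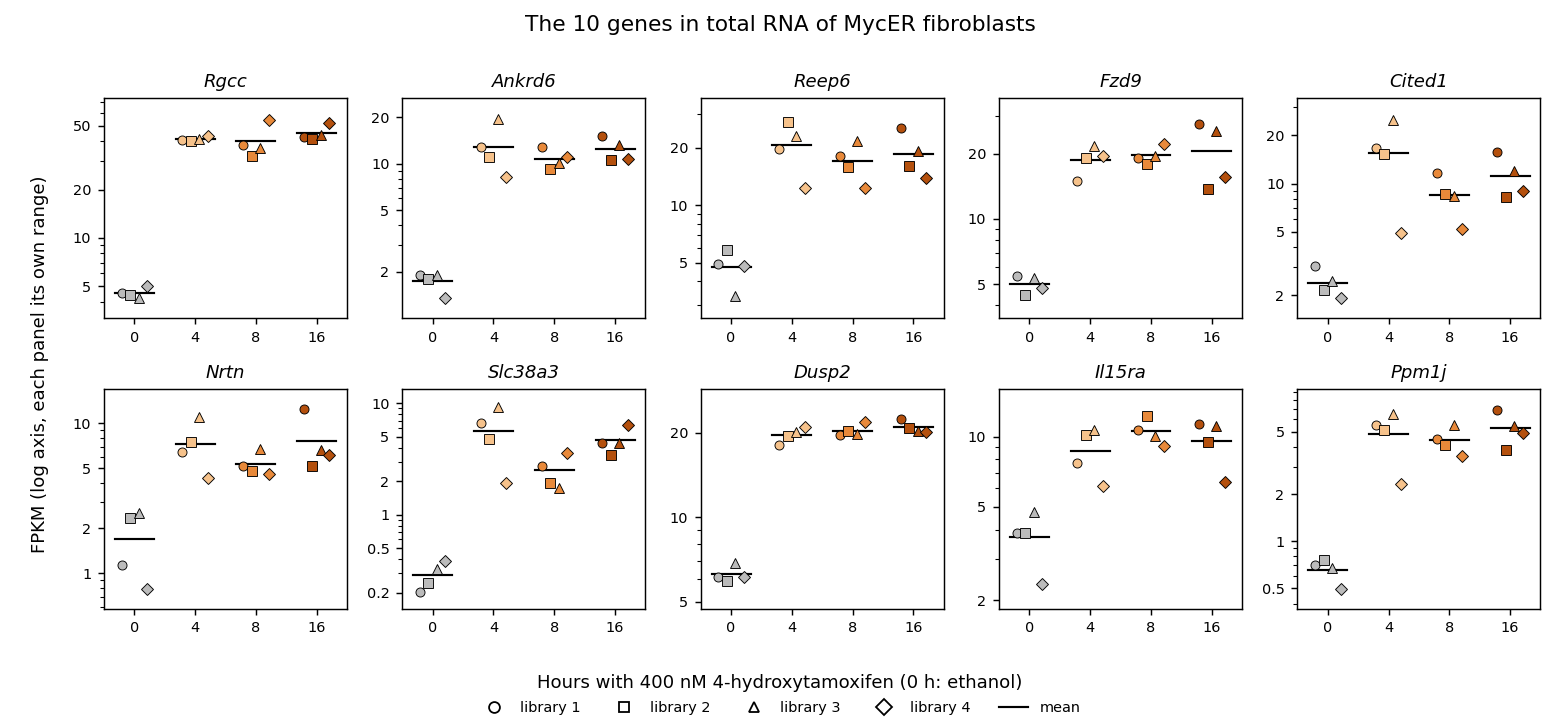
FPKM of the 10 genes in total RNA of MycER fibroblasts (log axes) by hours of OHT, with 1 point per library (the shape gives its number) and a bar at the mean of 4. The 12 OHT libraries lie above all 4 libraries at 0 h in each panel, and the libraries numbered 4 lie lowest at 4 h for 7 of the 10 genes.

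Rgcc, a regulator of the cell cycle that is known to bind Cdk1, had the largest rise of all tested genes at each of the 3 times. It read 4.56, 4.37, 4.21 and 4.99 FPKM at 0 h and 40.8, 40.2, 41.5 and 42.9 FPKM at 4 h. It then read 38.1, 32.5, 36.3 and 54.4 FPKM at 8 h and 42.7, 41.1, 43.6 and 52.3 FPKM at 16 h. The rise was of 9.13-fold in mean FPKM at 4 h and 9.91-fold at 16 h. In 4sU RNA it went from 0.589 to 8.79 FPKM, again first in rank, among 12375 genes.

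Fzd9, a Frizzled receptor for Wnt ligands, stayed level after its rise. Its libraries read 5.43, 4.48, 5.36 and 4.80 FPKM at 0 h and 15.0, 19.1, 21.6 and 19.6 FPKM at 4 h. They read 19.1, 18.0, 19.5 and 22.1 FPKM at 8 h and 27.5, 13.8, 25.4 and 15.6 FPKM at 16 h, where libraries 2 and 4 were the low ones. Newly made Fzd9 RNA went from 1.07 to 5.77 FPKM. Ankrd6, also called Diversin, is an ankyrin repeat protein that binds Axin and acts in Wnt and planar polarity signalling. It read 1.91, 1.80, 1.92 and 1.35 FPKM at 0 h and 12.9, 11.0, 19.3 and 8.26 FPKM at 4 h. It held 9.19 to 12.7 FPKM at 8 h and 10.5 to 15.0 FPKM at 16 h, and its newly made RNA went from 0.397 to 3.42 FPKM.

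Nrtn (neurturin), a secreted ligand of the GDNF family that signals through Gfra2 and Ret, read 1.13, 2.35, 2.51 and 0.784 FPKM at 0 h. It read 6.43, 7.49, 10.9 and 4.32 FPKM at 4 h, and 4.57 to 6.79 FPKM at 8 h and 5.17 to 12.4 FPKM at 16 h. The 0 h libraries fell into a lower pair (1 and 4) and a higher pair (2 and 3). Il15ra, the chain that binds interleukin 15 and presents it to neighbouring cells, had the smallest rise of the 10. It read 3.87, 3.88, 4.76 and 2.35 FPKM at 0 h, and 7.72, 10.1, 10.6 and 6.17 FPKM at 4 h. Its mean was highest at 8 h, at 10.5 ± 1.34 FPKM (SD, n = 4), and at 16 h library 4 read 6.40 FPKM beside 9.49 to 11.3 FPKM in the other 3.

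Dusp2, a nuclear phosphatase that switches off MAP kinases, was the steadiest of the 10. It read 6.13, 5.93, 6.84 and 6.14 FPKM at 0 h and 18.1, 19.5, 20.0 and 20.9 FPKM at 4 h. All 8 later libraries lay between 19.6 and 22.4 FPKM. Ppm1j, a phosphatase of the PP2C family, started below 1 FPKM, at 0.705, 0.756, 0.675 and 0.497 FPKM. It read 5.51, 5.11, 6.55 and 2.33 FPKM at 4 h, with library 4 well under the other 3, and 3.51 to 5.54 FPKM at 8 h and 3.82 to 6.91 FPKM at 16 h.

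Slc38a3 (SNAT3), a transporter that carries glutamine in either direction across the cell membrane, had the lowest starting level. It read 0.204, 0.244, 0.324 and 0.387 FPKM at 0 h and 6.64, 4.82, 9.32 and 1.95 FPKM at 4 h. At 8 h it read 2.74, 1.93, 1.75 and 3.56 FPKM, a mean of 43.9% of that at 4 h, and at 16 h it was back at 3.43 to 6.34 FPKM. The fold in mean FPKM was 19.6 at 4 h, while the log2(FPKM + 0.5) scale, which understates the change of low genes, gave 2.80. Slc38a3 and Ppm1j passed the filter of 1 FPKM through the OHT libraries alone.

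Cited1, a coregulator that binds the acetyltransferases Crebbp and Ep300, had the widest spread at 4 h. It read 3.06, 2.16, 2.44 and 1.92 FPKM at 0 h and 16.8, 15.3, 25.0 and 4.94 FPKM at 4 h. Its mean at 8 h was 54.6% of that at 4 h and at 16 h 72.4%, and the ranges at the 3 times overlapped with library 4 included. Reep6, a protein that shapes the endoplasmic reticulum, read 4.95, 5.87, 3.35 and 4.82 FPKM at 0 h and 19.8, 27.3, 23.1 and 12.4 FPKM at 4 h. It held 12.3 to 21.7 FPKM at 8 h and 13.9 to 25.4 FPKM at 16 h.

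Mean levels peaked at 4 h for 4 of the genes (Ankrd6, Reep6, Cited1 and Slc38a3), at 8 h for Il15ra and at 16 h for the other 5. At 16 h the mean was between 72.4% (Cited1) and 111% (Il15ra) of that at 4 h. Library 4 was the lowest at 4 h for 7 of the 10 genes, and its median FPKM over all genes was the lowest of the 4 at each treated time. Without the libraries numbered 4, the difference at 4 h was 3.25 in place of 2.80 for Slc38a3 and 2.65 in place of 2.28 for Cited1.

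In newly made RNA 9 of the 10 genes were at least 2-fold higher at 4 h than at 0 h on the FPKM + 0.5 scale, which held for 1.19% of the 12375 genes looked at. With 1 library per time there is no replicate check, and these values entered the choice of the genes. The median difference was 1.91 on the log2 scale, beside 0.02 over all genes. Il15ra stood out by its newly made RNA, which went from 3.14 to 13.4 FPKM, a log2 difference of 1.94 beside 1.13 in total RNA, and it ranked 9 of all genes in 4sU RNA but 72 in total RNA. Nrtn was the reverse, at 0.596 and 1.00 FPKM in 4sU RNA, a difference of 0.45 beside 1.85 in total RNA. Cited1 went from 0.938 to 2.67 FPKM, a difference of 1.14 beside 2.28. On this scale Rgcc, Reep6 and Fzd9 gave nearly the same difference in both kinds of RNA, at 3.09 and 3.06, 1.98 and 1.98, and 2.00 and 1.80. In fold of FPKM the 4sU rise was larger for Rgcc (14.9 against 9.13 in total RNA) and Fzd9 (5.38 against 3.75). Folds were close for Reep6 (4.46 against 4.35) and for Slc38a3 (19.2 against 19.6). Dusp2 went from 2.33 to 9.93, Reep6 from 2.81 to 12.5, Ppm1j from 0.250 to 1.81 and Slc38a3 from 0.085 to 1.63 FPKM. Rgcc, Ankrd6, Cited1, Nrtn, Slc38a3 and Ppm1j were under 1 FPKM in 4sU RNA at 0 h. Such low levels limit the precision of their differences and make them depend on the added 0.5 FPKM.

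**Figure D2:**
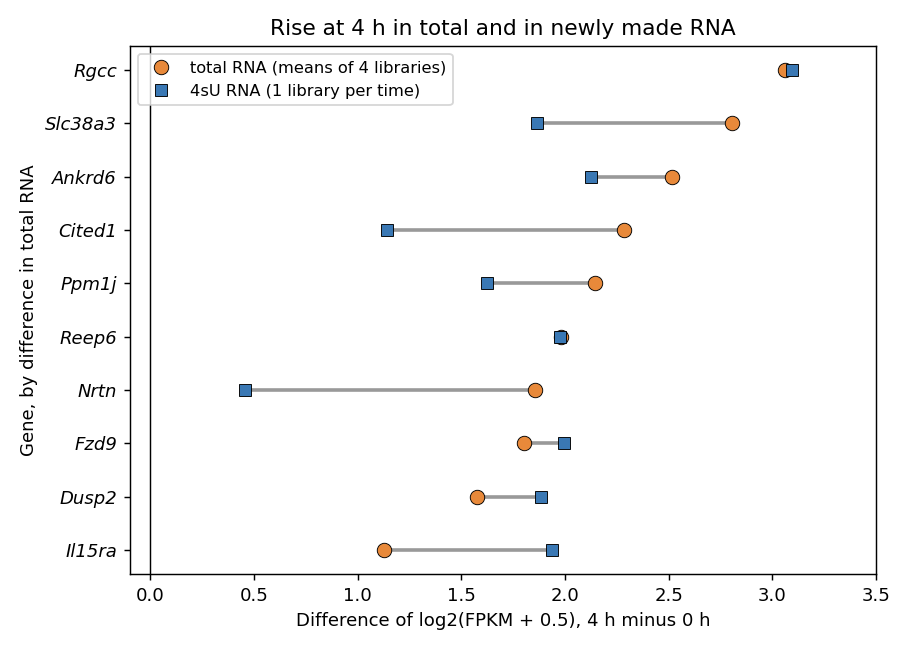
Difference of log2(FPKM + 0.5) between 4 h and 0 h of OHT for each of the 10 genes, in total RNA (circles, means of 4 libraries) and in 4sU RNA (squares, 1 library per time). Rgcc lies at about 3.06 in total RNA and 3.09 in 4sU RNA, Nrtn falls to 0.45 in 4sU RNA, and Il15ra rises to 1.94.

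The list does not hold every strong rise. Among all tested genes the 10 took ranks 1 to 5, 7, 8, 11, 18 and 72 at 4 h. The 5 other genes with the largest rises at 4 h, among those with a mean of at least 5 FPKM at that time and groups that do not overlap, were P2ry2 at 1.83, Adora2b at 1.68, Hapln4 at 1.65, Bhlhe41 at 1.64 and Myzap at 1.63 on the log2 scale. The first of these, a nucleotide receptor, thus rose by more than Fzd9 (1.80), Dusp2 (1.58) and Il15ra (1.13). The 3 other genes whose profile over the 16 libraries lay closest to the mean profile of the 10 were Btbd9, Ezh1 and Tlcd1, with Pearson r of 0.99, 0.98 and 0.98. Ezh1, a histone methyltransferase, went from 5.86 FPKM at 0 h to 13.3 at 4 h and 13.1 at 16 h. The 16 points fall into 0 h and treated libraries, so these coefficients mainly reflect that step.

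The relatives of the 10 genes are 108 genes in 9 lists of families and pathways. The rule that picked the 10 did not use them, and they were tested. The lists were drawn up with earlier results of these data known, so their calls are not independent support. At 4 h 5 of the 85 that were tested rose and 4 fell, beside 1.9% and 2.88% of all tested genes, at a limma adjusted p under 0.05. At 8 h 4 rose and 3 fell, beside 1.21% and 0.982%, and at 16 h 4 rose and 9 fell, beside 1.76% and 7.75%. Median ratio scaling changed the split over all genes from 246 higher and 372 lower to 736 and 712 at 4 h, and from 228 and 1002 to 977 and 936 at 16 h. With it 10, 10 and 14 of the relatives rose at 4, 8 and 16 h. Without OHT_16h replicates 1, 2 and 4 in turn, 15, 5 and 4 of them fell at 16 h, and without OHT_0h replicate 4 only 1 fell at 8 h.

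Among 33 tested Wnt genes 3 rose at 4 h and none fell, with a list median of -0.05 beside -0.04 over all genes. At an unadjusted limma p under 0.05, 4 were higher and 2 lower at 4 h, 3 and 1 at 8 h, and 4 and 7 at 16 h. Fzd4, another Frizzled receptor, rose from 5.46 ± 1.44 to 17.2 ± 2.47 FPKM (SD, n = 4 each), a log2 change of 1.59 ± 0.18 (SE, limma adjusted p = 1.89e-05). Prickle1, a planar polarity protein, rose from 1.38 ± 0.071 to 4.12 ± 0.457 FPKM, a log2 change of 1.29 (adjusted p = 0.000117). Both were still higher at 16 h, by 1.37 and 1.22 on the log2 scale (adjusted p = 8.07e-05 and 0.000142). Lgr4, a receptor for R-spondins, rose by 0.35 at 4 h (adjusted p = 0.0473), a call that was lost in 12 of 17 alternatives, among them leaving out any one library but OHT_4h replicate 4 (adjusted p = 0.081 to 0.142).

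The relatives of Dusp2 that passed the test fell, while Dusp2 was higher. Of 8 tested relatives 3 fell at 4 h and at 8 h and 5 fell at 16 h, beside 2.88%, 0.982% and 7.75% of all tested genes. At the adjusted p none rose at any of the 3 times. At an unadjusted limma p under 0.05, 5, 5 and 6 were lower at 4, 8 and 16 h, and 1 was higher at 8 h. The list median was -0.48 at 4 h and -0.77 at 16 h, beside -0.04 and -0.14 over all genes. Dusp1, which acts on p38, JNK and ERK, fell from 48.5 ± 6.00 to 23.9 ± 2.49 FPKM at 4 h (log2 change -1.005, limma adjusted p = 0.00168). Dusp6, an ERK phosphatase of the cytoplasm, fell from 40.1 ± 7.49 to 22.2 ± 6.19 FPKM at 4 h (-0.86, adjusted p = 0.0054) and to 14.6 ± 1.89 FPKM at 16 h (-1.42, adjusted p = 4.73e-05). Dusp5, a nuclear ERK phosphatase like Dusp2, fell from 41.1 ± 11.4 to 18.5 ± 4.70 FPKM at 4 h (-1.13, adjusted p = 0.00694). Per length, these 3 genes read 40.1 to 48.5 FPKM at 0 h beside 6.26 for Dusp2, and 14.6 to 19.6 FPKM at 16 h beside 20.9 for Dusp2. Dusp4 and Dusp10 were the other 2 that fell at 16 h, with log2 changes of -0.67 and -0.87. The 8 h call of Dusp5 was lost without OHT_0h replicate 4 (adjusted p = 0.0605), and that of Dusp6 without OHT_0h replicate 2 or 4 or OHT_8h replicate 1, 2 or 3 (adjusted p = 0.0519 to 0.0843).

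The ligand of Il15ra moved against it. Il15 fell from 1.94 ± 0.555 to 0.626 ± 0.156 FPKM at 4 h (log2 change -1.10, limma adjusted p = 0.00685) and stood at 0.779 ± 0.410 FPKM at 16 h (-0.97, adjusted p = 0.00997). The gene is near the filter of 1 FPKM and passed it through the libraries at 0 h. None of the other 4 tested genes of the interleukin 15 list passed the test at 4 or 16 h, and at 8 h none of the 5 did, where 1 fell at an unadjusted p under 0.05.

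A pair of glutamine enzymes rose beside Slc38a3, while the other SLC38 transporters did not pass the test. Of 10 tested genes of that list 2 rose at each time and none fell. At an unadjusted limma p under 0.05, 3 of the 10 were higher and 0 lower at each time. Gls2, a glutaminase, rose from 5.96 ± 1.43 to 19.1 ± 6.79 FPKM at 4 h (log2 change 1.55, limma adjusted p = 0.00184) and stood at 18.3 ± 5.66 FPKM at 16 h. Its call at 8 h (1.26, adjusted p = 0.0144) was lost without OHT_0h replicate 4 or OHT_8h replicate 1 or 3 (adjusted p = 0.0518 to 0.0615). Glul, glutamine synthetase, rose from 36.0 ± 4.85 to 60.5 ± 6.55 FPKM at 4 h (0.74, adjusted p = 0.00168) and stood at 57.0 ± 9.66 FPKM at 16 h. In the GDNF list Gdnf, the ligand related to Nrtn, read 38.5 ± 4.83 FPKM at 0 h and 28.1 ± 4.61 FPKM at 4 h (-0.45, adjusted p = 0.0705). That difference was called in 4 of 17 alternatives (adjusted p = 0.0335 to 0.0413), among them median ratio scaling and the fit of only the 2 groups. It was lower at 16 h (-0.50, adjusted p = 0.0289), a call that was lost in 8 of 17 alternatives, among them median ratio scaling (adjusted p = 0.0888) and leaving out OHT_0h replicate 1, 2 or 4 or OHT_16h replicate 2, 3 or 4 (adjusted p = 0.0508 to 0.112).

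None of the 15 tested PP2C relatives of Ppm1j, none of 4 REEP relatives and none of 3 CITED genes and coactivators passed the limma test at 4 h, where 1 PP2C gene and none of the others had an unadjusted p under 0.05. Their most abundant members, Ppm1g, Reep5 and Cited2, read 85.7 ± 6.62, 50.2 ± 5.05 and 48.0 ± 3.96 FPKM at 4 h, with log2 differences of -0.02, -0.22 and -0.28 from 0 h. Cdk1 and its cyclins, the partners of Rgcc, gave no call at 4 or 8 h, with 1 of 4 lower at an unadjusted p under 0.05 each time. At 16 h Reep5 fell by 0.42 (adjusted p = 0.0344) and Ccnb2 by 0.32 (adjusted p = 0.0207) on the log2 scale. Both calls were lost under median ratio scaling (adjusted p = 0.277 and 0.641) and in 8 and 6 further alternatives of 17.

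**Figure D3:**
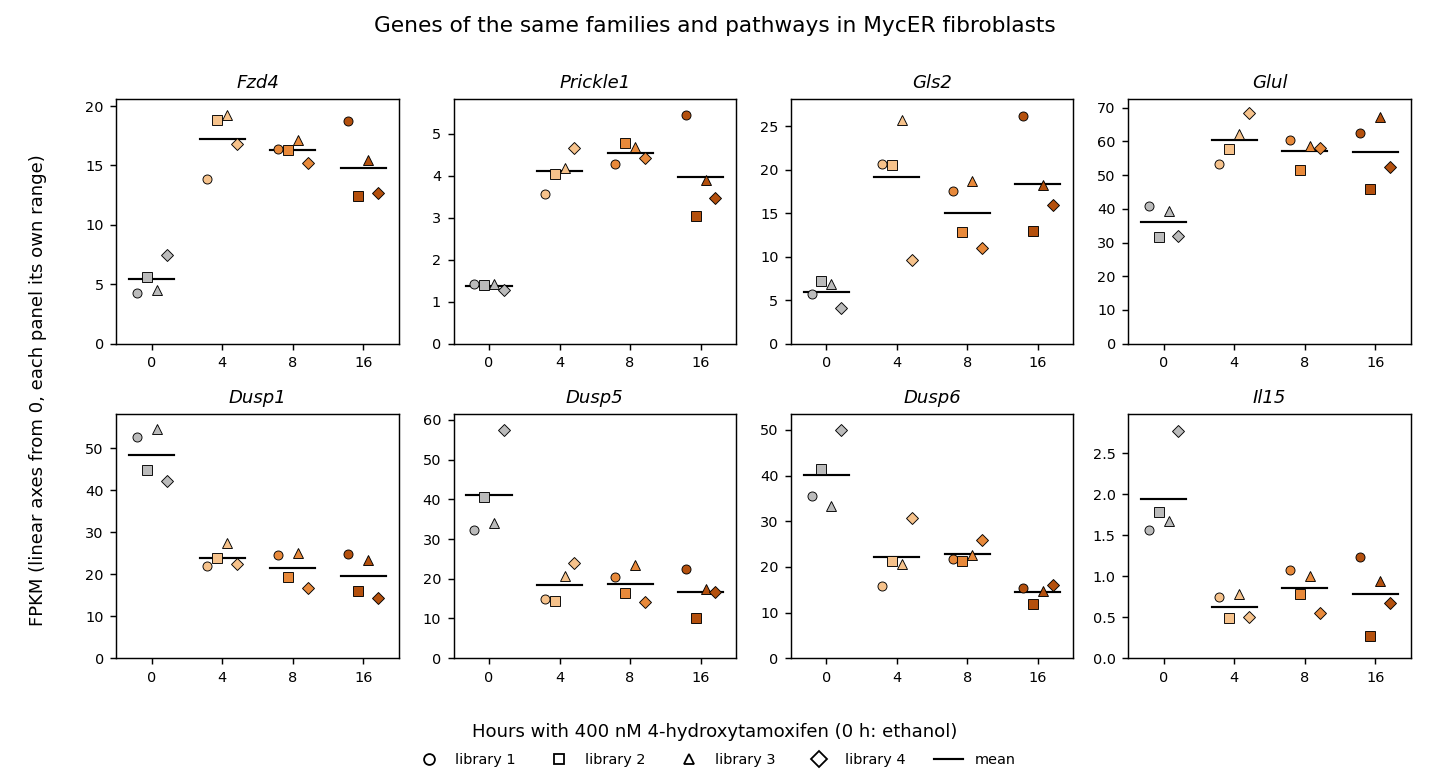
FPKM of 8 relatives of the 10 genes in total RNA of MycER fibroblasts (linear axes from 0) by hours of OHT, with 1 point per library and a bar at the mean of 4. Fzd4, Prickle1, Gls2 and Glul lie higher with OHT, and Dusp1, Dusp5, Dusp6 and Il15 lower, with no overlap between 0 h and 4 h in these panels. The 8 genes shown are among those called at 4 h, and the share of all genes without overlap between these times is not given. The separation therefore only describes the values.

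The B cell libraries ask whether the same genes differ where Myc is raised by the Eμ-myc transgene. Of the 8 genes that passed the filter in spleen, 3 were higher in Tg than in WT (Fzd9, Reep6 and Ankrd6) and 1 was lower (Dusp2), at a limma adjusted p under 0.05. Over all 14021 tested genes 15.7% were higher and 12.2% lower. Fzd9 and Reep6 passed the filter of 1 FPKM in 4 libraries through the Tg group, where they are high, so the count over genes that passed is a description. Both were also called in the table with no filter (adjusted p = 0.00391 and 0.0143). In the tumours 7 genes passed the filter, of which 2 were higher than in WT spleen (Fzd9 and Ankrd6) and 1 lower (Dusp2), beside 20.3% and 17.7% of all tested genes. Between tumours and Tg spleen none of 8 was higher, also at an unadjusted p under 0.05, and Dusp2 was lower, beside 3.56% and 2.39%. Without the third tumour library the calls in the tumours named the same 3 genes against WT, where 22.9% and 21.1% of all genes were called, and Dusp2 against Tg spleen. The 2 tumour comparisons and the spleen comparison share control libraries, so they do not count as separate evidence. In such bulk samples, fewer cells of a type and less RNA per cell cannot be told apart.

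**Figure D4:**
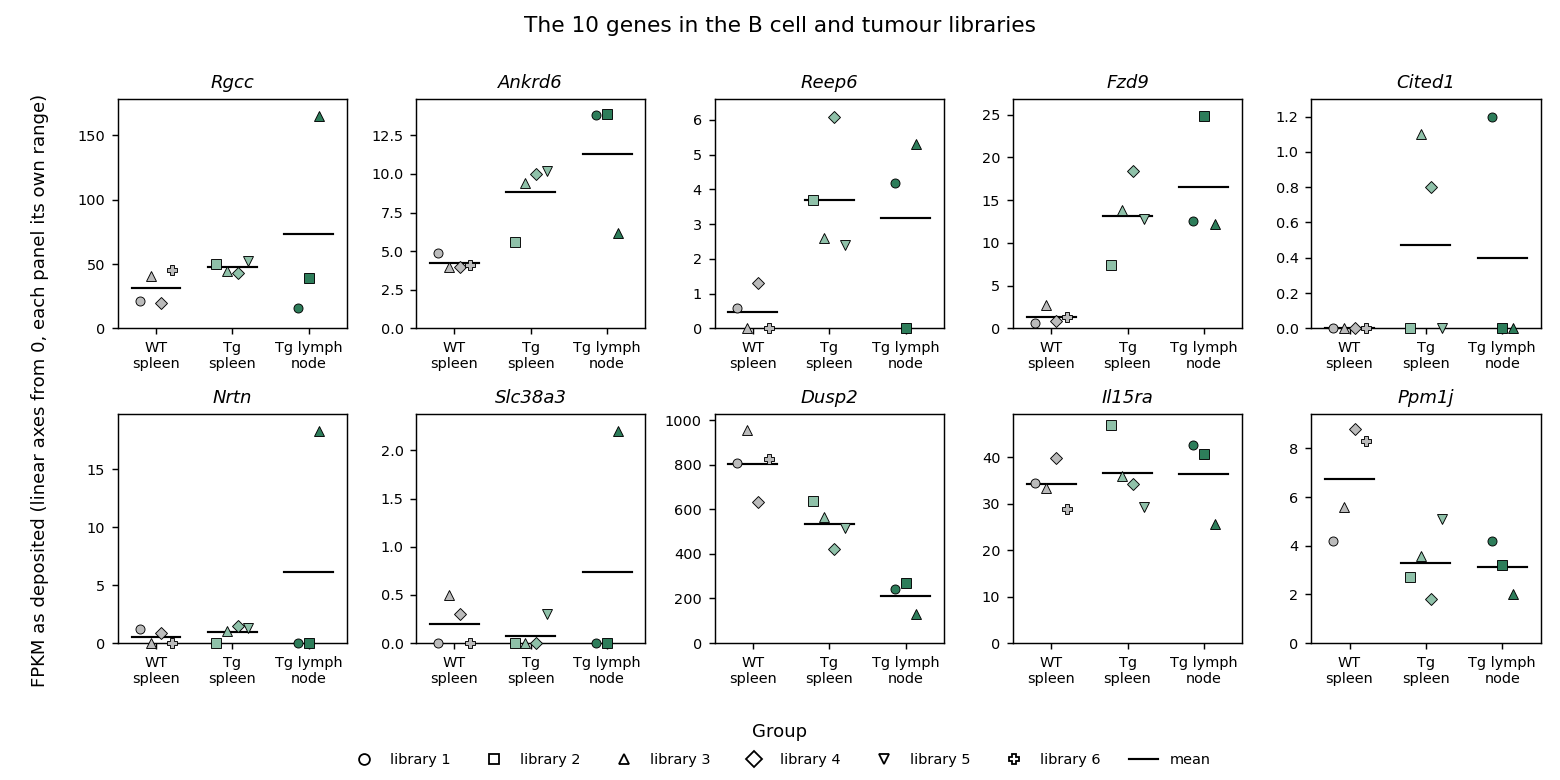
FPKM of the 10 genes in the B cell and tumour libraries (linear axes from 0), with 1 point per library (the shape gives its number) and a bar at the group mean. Fzd9 and Ankrd6 lie above all WT libraries in each Tg library, Dusp2 falls from spleen to tumour, and the third tumour library is the high one for Rgcc, Nrtn and Slc38a3.

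Fzd9 gave the largest difference from WT among the genes tested, 8 in Tg spleen and 7 in the tumours. It read 0.6, 2.8, 0.9 and 1.3 FPKM in WT spleen, 7.4, 13.8, 18.4 and 12.8 FPKM in Tg spleen and 12.6, 24.8 and 12.2 FPKM in the tumours. Every Tg library lay above every WT library. The share of all genes without overlap is not given for the B cell sets. Here and for Ankrd6 and Dusp2, the separation therefore only describes the values. The log2 change was 2.90 ± 0.42 (SE) in Tg spleen (limma adjusted p = 0.00314) and 3.21 ± 0.50 in the tumours (adjusted p = 0.00202), and 3.39 without the third tumour library (adjusted p = 0.00181). The difference between tumours and Tg spleen was 0.31 ± 0.43 (adjusted p = 0.71), and 0.49 without the third (adjusted p = 0.567). The depth behind the WT values is about 1.1 to 5.3 reads and behind the Tg spleen values about 18.3 to 54.8 reads.

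Ankrd6 read 4.9, 4.0, 4.0 and 4.1 FPKM in WT spleen, 5.6, 9.4, 10.0 and 10.2 FPKM in Tg spleen and 13.8, 13.9 and 6.2 FPKM in the tumours. The groups did not overlap with WT, with library 2 of Tg spleen and the third tumour as the low ones. The log2 change was 0.94 ± 0.28 (SE) in Tg spleen (limma adjusted p = 0.034) and 1.23 ± 0.39 in the tumours (adjusted p = 0.0372), and 1.60 without the third tumour library (adjusted p = 0.00648). The spleen call was lost in 9 of 16 alternatives, among them leaving out any library but Tg_spleen replicate 2, with adjusted p between 0.0609 and 0.0858 in those. The tumour call was lost in 7 of 15, among them leaving out any library but the third tumour, with adjusted p of 0.0673 to 0.106 in those. Reep6 read 0.6, 0, 1.3 and 0 FPKM in WT spleen, 3.7, 2.6, 6.1 and 2.4 FPKM in Tg spleen and 4.2, 0 and 5.3 FPKM in the tumours. Its log2 change was 2.24 ± 0.52 (SE) in Tg spleen (adjusted p = 0.0135), on about 5.5 to 17.5 reads a library against 0 to 3.2 in WT. That call was lost when all 3 B cell groups shared 1 fit (adjusted p = 0.062). In the tumours it was 1.51 ± 0.93 (adjusted p = 0.233), 0.87 without the third tumour (adjusted p = 0.495) and 2.64 without the second, which is listed at 0 (adjusted p = 0.0249).

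Dusp2 was lower where Myc was raised in B cells and higher in MycER fibroblasts given OHT. It read 807.8, 956.7, 633.1 and 823.4 FPKM in WT spleen, 636.7, 567.5, 419.7 and 516.6 FPKM in Tg spleen and 241.5, 268.5 and 128.7 FPKM in the tumours. The spleen groups touched, with the highest Tg library just above the lowest WT library, while the tumours lay below all spleen libraries. The log2 change was -0.59 ± 0.17 (SE) in Tg spleen (limma adjusted p = 0.0319), a call that was lost in 8 of 16 alternatives, among them leaving out any of WT_spleen replicates 1, 3 and 6 and Tg_spleen replicates 3, 4 and 5 (adjusted p = 0.0532 to 0.0872). It was -1.97 ± 0.27 in the tumours against WT (adjusted p = 0.00119), and -1.64 without the third tumour (adjusted p = 0.000247). Between tumours and Tg spleen it was -1.38 ± 0.28 (adjusted p = 0.0292), and -1.05 without the third tumour (adjusted p = 0.0341), a call that was lost on leaving out Tg_spleen replicate 2, 3 or 5 or Tg_lymphnode replicate 1 (adjusted p = 0.0501 to 0.0921). The difference in direction between fibroblasts and B cells was not tested, since Dusp2 was chosen for its rise in the fibroblasts.

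The other genes gave no call in B cells. Rgcc, listed there under its older symbol 1190002H23Rik, read 21.2, 40.5, 19.5 and 45.6 FPKM in WT spleen and 50.0, 44.3, 43.2 and 52.6 FPKM in Tg spleen, a log2 difference of 0.67 ± 0.28 (SE, limma adjusted p = 0.103). The tumours read 15.8, 38.9 and 165.2 FPKM, from below all WT libraries to above all, with 0.66 ± 0.74 against WT (adjusted p = 0.514) and -0.25 without the third (adjusted p = 0.699). Il15ra lay between 25.7 and 46.8 FPKM in all 11 libraries, with 0.09 ± 0.20 in Tg spleen (adjusted p = 0.759) and 0.06 ± 0.26 in the tumours (adjusted p = 0.869), or 0.29 without the third (adjusted p = 0.324). Ppm1j, which rose in fibroblasts, read 4.2, 5.6, 8.8 and 8.3 FPKM in WT spleen, 2.7, 3.6, 1.8 and 5.1 FPKM in Tg spleen and 4.2, 3.2 and 2.0 FPKM in the tumours. Its differences of -0.95 ± 0.37 (adjusted p = 0.0824) and -0.99 ± 0.42 (adjusted p = 0.0961), or -0.74 without the third tumour (adjusted p = 0.196), rest on about 2.9 to 16.8 reads a library.

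Nrtn, Cited1 and Slc38a3 were near the detection limit in B cells. Cited1 was listed at 0 in 8 of the 11 libraries and read 1.2 FPKM or less in the others, and 1 read is worth about 0.54 to 0.97 FPKM for it. Nrtn read 1.5 FPKM or less in all libraries but the third tumour, which read 18.3 FPKM on about 15.9 reads, while the other tumours were listed at 0. Its tested difference in Tg spleen was 0.55 ± 0.63 (SE, limma adjusted p = 0.538). Slc38a3 read 0.5 FPKM or less outside the third tumour, which read 2.2 FPKM on about 6.6 reads. The high values of Rgcc, Nrtn and Slc38a3 in the third tumour stand beside its T cell markers of 10803 FPKM, its acinar markers of 11583 FPKM and 2655 FPKM of Siglech, a plasmacytoid dendritic cell gene that read 6.0 to 144 FPKM in the other 10 libraries, and the part of these cells in the values was not tested.

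Marker sums of other cell types differed between the groups too. Natural killer cell markers (6 genes) summed to 422 to 760 FPKM in WT spleen, 51.0 to 381 FPKM in Tg spleen and 127 to 212 FPKM in the tumours. T cell markers (8 genes) summed to 1460 to 1853 FPKM in WT and 827 to 1649 FPKM in Tg spleen, and myeloid markers (7 genes) to 1760 to 3514 and 849 to 2493 FPKM. In the tumours these sums were 1568 to 10803 FPKM and 2773 to 4754 FPKM. Stroma and endothelium markers (6 genes) summed to 1029 to 1198 FPKM in WT, 485 to 816 in Tg spleen and 1055 to 1226 in the tumours. The sum of the fibroblast list (10 genes) was higher in Tg, at 1301 to 1972, 2311 to 5423 and 2997 to 5986 FPKM in the same order. Col1a1, Col1a2 and Col3a1 stand both in this list and in the stroma list, whose sum was lower in Tg spleen. Which other genes of the fibroblast list carried its higher sum was not examined, so that sum is no measure of fibroblasts. B cell markers were at 38005 to 42457 FPKM in WT and 24394 to 36721 FPKM in Tg spleen. Their part in the differences of the 10 genes was not tested. The tumours also differed from spleen in tissue and in having no bead selection, which cannot be told apart from the tumour state.

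Of 88 relatives tested in spleen, 9 were higher and 15 lower in Tg, beside 15.7% and 12.2% of all tested genes. Of 95 tested in the tumours 17 were higher and 19 lower than in WT spleen, beside 20.3% and 17.7%, and 15 and 19 were without the third tumour. These counts lie near the shares over all genes and say nothing particular of the relatives. All 4 of Cdk1 and its cyclins, the cell cycle partners of Rgcc, were higher in both, with Cdk1 at 38.1 ± 8.99 FPKM in WT, 285 ± 155 in Tg spleen (log2 change 2.73, limma adjusted p = 0.00286) and 282 ± 146 in the tumours (2.79, adjusted p = 0.000688, and 3.03 without the third). Beside Fzd9, the Wnt receptor Ryk went from 10.8 ± 1.52 FPKM in WT to 38.9 ± 9.49 in Tg spleen (1.78, adjusted p = 0.00233) and 106 ± 21.8 in the tumours (3.23, adjusted p = 0.000133, and 3.41 without the third). Znrf3, a ligase that removes Frizzled receptors from the surface, was higher by 1.50 in Tg spleen (adjusted p = 0.00865) and by 2.55 in the tumours (adjusted p = 0.000466, and 2.50 without the third). Wls, which carries Wnt ligands out of the cell, had log2 changes of -2.01 and -1.91 (adjusted p = 0.00137 and 0.00189), and -1.86 in the tumours without the third. The tested Wnt genes, 27 in Tg spleen and 32 in the tumours, had medians of -0.09 and 0.36 (0.28 without the third tumour), beside -0.05 and 0.05 over all genes.

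Of 8 other MAP kinase phosphatases tested in Tg spleen 2 were lower, and of 9 tested in the tumours 3 were lower, beside 12.2% and 17.7% of all genes, with none higher at the adjusted p. Without the third tumour 3 were lower as well. Dusp4 went from 103 ± 12.5 FPKM in WT to 20.6 ± 6.26 in Tg spleen (log2 change -2.33, limma adjusted p = 0.00109), and Dusp6 from 471 ± 118 to 191 ± 51.9 FPKM (-1.30, adjusted p = 0.0047, and 0.156 when all 3 groups shared 1 fit). In the tumours Dusp10 was at 34.5 ± 17.7 FPKM and Dusp16 at 24.4 ± 14.0 FPKM, against 148 ± 38.3 and 148 ± 26.8 in WT (-2.15 and -2.79, adjusted p = 0.00241 and 0.0029), and gave -1.94 and -3.13 without the third tumour. Dusp4 was called lower in the tumours (-2.30, adjusted p = 0.0462) but not without the third (-1.91, adjusted p = 0.14) or the second (adjusted p = 0.14), nor without any one WT library (adjusted p = 0.0841 to 0.096). Of the 9 tested interleukin 15 genes 5 were lower in Tg spleen and none higher, beside 12.2% of all genes lower. Among them were Stat3 (-0.75, limma adjusted p = 0.00846) and Jak1 (-0.86, adjusted p = 0.0114). Il2rb, a receptor chain that natural killer cells carry, was lower as well (-1.73, adjusted p = 0.0134). The natural killer marker sums given above were also lower in Tg spleen, and their part in these differences was not tested.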

How the data were processed

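RNA-seq of ribosomal RNA-depleted total RNA, and of 4sU-labelled RNA, was measured in 29 libraries. The authors deposited one FPKM table per library, with 1 decimal for B cells and 3 for fibroblasts. Per the submitters' processing notes, TopHat2 2.0.8, SAMtools and HTSeq 0.5.3p9 and the mm9 build were used. Counts and fibroblast depth are not given in the sources used here. B cell reads were approximated from the spacing of low FPKM values (67 to 77% near whole numbers, tolerance 0.15) and GRCm38 gene lengths, and cover counting error only.

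Differences of log2(FPKM + 0.5) were computed and tested by limma (version 3.58.1, under R 4.3.3; moderated test, trend and robust fit). A gene was kept when it reached 1 FPKM in a number of libraries equal to the smaller group's size, and p-values were Benjamini-Hochberg adjusted over all of them, with calls at 0.05. The 16 fibroblast total RNA libraries shared 1 fit, and each B cell comparison used its own 2 groups. The test was run on data simulated with independent noise in each library. That check leaves out any deviation that same-numbered libraries share. Promoter windows came from RefSeq. Scripts ran in Python 3.11.15.

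The 10 genes and the related lists were chosen with earlier results of these data known. Related genes are named by smallest adjusted p, up to 3 called per list and comparison, or the most abundant where none was called. Others named are the 5 largest rises at 4 h with a mean of at least 5 FPKM, and the 3 closest profiles. Dusp4 and Dusp10 at 16 h, and Siglech, were named after their values were seen. The labels do not say that library numbers pair libraries across groups, and the numbers were not used as pairs. Alternatives were other pseudocounts, filters, scaling, fits, a replicate block and leaving out libraries.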

Additional observations from a re-analysis of the deposited data

Results flagged for a closer look

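Over 59 combinations of a gene and a group of 4 libraries, 2 held a library far from the others, and chance gives about 1 in 20. Ankrd6 in WT_spleen replicate 1 read 4.9 FPKM, beside 4.0 to 4.1 FPKM in the other WT libraries. Slc38a3 in Tg_spleen replicate 5 read 0.3 FPKM, on about 1.6 reads, where the other Tg spleen libraries were listed at 0.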

How the results depend on the processing

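The median log2 difference of the 10 genes in fibroblasts stayed positive under every alternative run. Their choice by large rises in these libraries made that near certain, so it is no test of the rise. The median was 1.60 at 8 h with a pseudocount of 1 FPKM. In 4sU RNA it was 2.22 and 1.68 with pseudocounts of 0.1 and 1 FPKM, and 1.87 under median ratio scaling. Over all genes, scaling gave 736 higher and 712 lower at 4 h, 651 and 382 at 8 h, and 977 higher at 16 h. Fitting only the 2 groups compared gave 794 lower at 4 h and 284 at 8 h. Without the libraries numbered 4, an alternative chosen after seeing the data, 411 were higher and 865 lower at 4 h and 262 higher at 8 h. Leaving out 1 library gave 145 to 285 higher and 118 to 488 lower at 4 h, 90 to 164 and 48 to 96 at 8 h, and 155 to 229 and 448 to 1886 at 16 h. The cause was not tested.

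Deviations of same-numbered libraries correlated over 0.1 in 9 of 12 fibroblast pairs and 2 of 6 B cell pairs, short of every pair, so pairing remains a hint in the fibroblasts. With a replicate block 408 genes were higher and 697 lower at 4 h, 313 and 416 at 8 h, and 349 and 1722 at 16 h. In B cells the block leaves 1 residual degree of freedom and gave 1 of the 10 genes higher and 0 lower in Tg spleen, 0 and 0 in tumours against WT, and 0 lower against Tg spleen. Libraries correlated best with their own number in 7 of 12 fibroblast pairs.

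Fitting all 3 B cell groups together gave 1 higher and 0 lower in Tg spleen. Leaving out 1 library gave 2 to 3 higher and 0 to 1 lower in Tg spleen, 1 to 2 higher in tumours against WT, and 0 to 1 lower against Tg spleen. Uncalled differences changed sign in places. Il15ra in Tg spleen was -0.0506 with the block and -0.0357 to 0.186 on leaving out 1 library, and in tumours against WT -0.0352 and -0.0675 to 0.29. Rgcc in tumours against WT ranged from -0.25 to 1.42 on leaving out 1 library. Between tumours and Tg spleen Rgcc was 8.53e-05 under scaling, 0.76 with the block and -0.92 to 0.76 on leaving out 1 library. There, leaving out 1 library gave -1.37 to 0.39 for Reep6, -0.00924 to 0.50 for Fzd9, -1.36 to 1.26 for Nrtn (-0.31 with a pseudocount of 0.1), -0.16 to 0.20 for Il15ra and -0.25 to 0.21 for Ppm1j. Depth limits Cited1, Nrtn and Slc38a3 in B cells to a few reads a library.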
